A study of Mus musculus with 4 samples.

Results

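The genes described here encode the protease that the drug in this study blocks and the proteases that cut ahead of it: the gamma-secretase subunits Psen2, Ncstn, Aph1a, Aph1b and Psenen, the sheddases Adam10 and Adam17, and the beta-site proteases Bace1 and Bace2. They were taken as every probe set whose single gene symbol in the platform annotation is one of these 9 genes, which gave 26 of the 45037 non-control probe sets tested. RNA came from T29, a mouse thymic lymphoma cell line grown in RPMI medium with serum. The treated cells had received GSI, the gamma-secretase inhibitor MRK003, at a dose the labels write as 5 mM for 36 h (2 arrays), and the others DMSO, its solvent (2 arrays). The labels carry the same treatment text for both groups, so the groups rest on the sample titles, and the unit of the dose could not be checked. Both groups are 1 cell line. The labels do not say whether replicates came from separate cultures, and the p-values therefore describe only how far these arrays scattered, which may be technical scatter.

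Gamma-secretase is a membrane-embedded complex of a presenilin, which carries the active site, with nicastrin, an APH-1 subunit and PEN-2. It cuts single-pass membrane proteins inside the lipid bilayer after a first protease has removed most of their outer part. For Notch receptors bound by ligand that first cut is made mainly by ADAM10, and the second releases the intracellular domain that acts with RBPJ in the nucleus. For the amyloid precursor protein the first cut can be made by an ADAM protease or by BACE1.

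Values are log2 expression per probe set and array, made by the authors with RMA. The median per array lay between 4.86 and 4.89, arrays of 1 group correlated at 0.9959 to 0.9970 across probe sets, and a 2-fold gap or larger separated the GSI arrays at 14 probe sets and the DMSO arrays at 87. Of 9 T lineage markers 8 lay above the median level of all probe sets, and 20 of 27 markers of B, myeloid, erythroid, stromal, epithelial and natural killer cells lay below it. Of those 27, only Pdgfrb, a growth factor receptor gene of stromal cells, passed the test, at 7.39 and 7.42 with GSI against 8.77 and 8.60 with DMSO, and its part in the results below was not tested. With genes rather than probe sets tested, the B cell gene Blnk also passed (log2 difference 0.48, limma, adjusted p = 0.0477). The myeloid gene Itgam, below the median level, was 2.07-fold higher with GSI without overlap and did not pass (adjusted p = 0.0935). In the fit of probe set means it passed (limma, adjusted p = 0.0353). The log2 levels of the 8 stromal and epithelial markers summed to 38.2 and 37.7 on the GSI arrays, against 39.4 and 38.8 on the DMSO arrays. Without Pdgfrb the other 7 summed to 30.8 and 30.3 on the GSI arrays, against 30.6 and 30.2 on the DMSO arrays, and Pdgfra had the opposite sign to Pdgfrb (log2 difference 0.55, adjusted p = 0.165). Among the T lineage markers Cd247, a T cell receptor signalling chain, passed (log2 difference 0.81). As the mean of its 4 probe sets it differed by 0.41 and did not pass (limma, adjusted p = 0.0806). Of the 9 markers 4 were higher and 5 lower with GSI, with a median of -0.12. Cd2, Cd3d, Cd3e, Cd3g and Zap70 were lower without overlap, by log2 differences of -0.79, -0.30, -0.14, -0.47 and -0.12, and did not pass. Thy1, Lat and Bcl11b were higher without overlap, by 0.53, 0.25 and 0.33, and did not pass either. Among all genes read from their highest-mean probe set, 23.7% were higher and 27.7% lower without overlap. With genes rather than probe sets tested, 2 of the 9 passed as higher and 1 as lower. Hes1, a transcriptional repressor induced by Notch, stood at 6.52 and 6.40 on the GSI arrays against 8.71 and 8.73 on the DMSO arrays. In the highest-mean probe set of each, the 5 Notch-responsive genes Dtx1, Hes1, Nrarp, Ptcra and Il2ra fell 3.26-fold to 11.6-fold (limma, adjusted p = 0.00125 to 0.00613). Of their 8 probe sets 7 passed, the smallest fall being 1.99-fold at Dtx1 1458643_at (adjusted p = 0.0478). Il2ra 1420691_at was 3.43-fold lower with GSI and did not pass (adjusted p = 0.0526).

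Against these falls, the transcripts of the proteases themselves differed little between GSI and DMSO. Of the 26 probe sets 0 passed limma at an adjusted p under 0.05, the threshold used throughout, where 1.39% of all probe sets did (0.948% higher and 0.446% lower with GSI). At an unadjusted p under 0.05, 3 were higher with GSI and 0 lower, against 8.17% higher and 8.23% lower among all probe sets. Differences of the group means (GSI minus DMSO, log2) ran from -0.17 to 0.36 with a median of 0.097, beside a median of -0.012 over all probe sets. Their median size without regard to sign was 0.12, as it was over all probe sets. A larger difference than that of any member was found at 4638 probe sets, or 10.3% of all. The mean was higher with GSI for 19 probe sets and lower for 7.

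A difference that misses the threshold does not show that nothing changed, so the 95% interval of each was computed. The intervals of the 26 probe sets all lay between a log2 difference of -0.54 and 0.73, or 0.690-fold to 1.66-fold, and both of these extremes came from dim Bace2 probe sets. For the 18 probe sets above the median level of 4.88, which cover every member except Bace2, the bounds were 0.752-fold and 1.49-fold. A 2-fold change in either direction thus lay outside the interval of each single probe set. Over all 8 probe sets of the 5 Notch-responsive genes the bound nearest to no change was 1.54-fold lower, and over their 5 highest-mean probe sets it was 2.71-fold lower. RMA values compress differences of dim probe sets, so these bounds apply to the values on that scale.

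**Figure D1:**
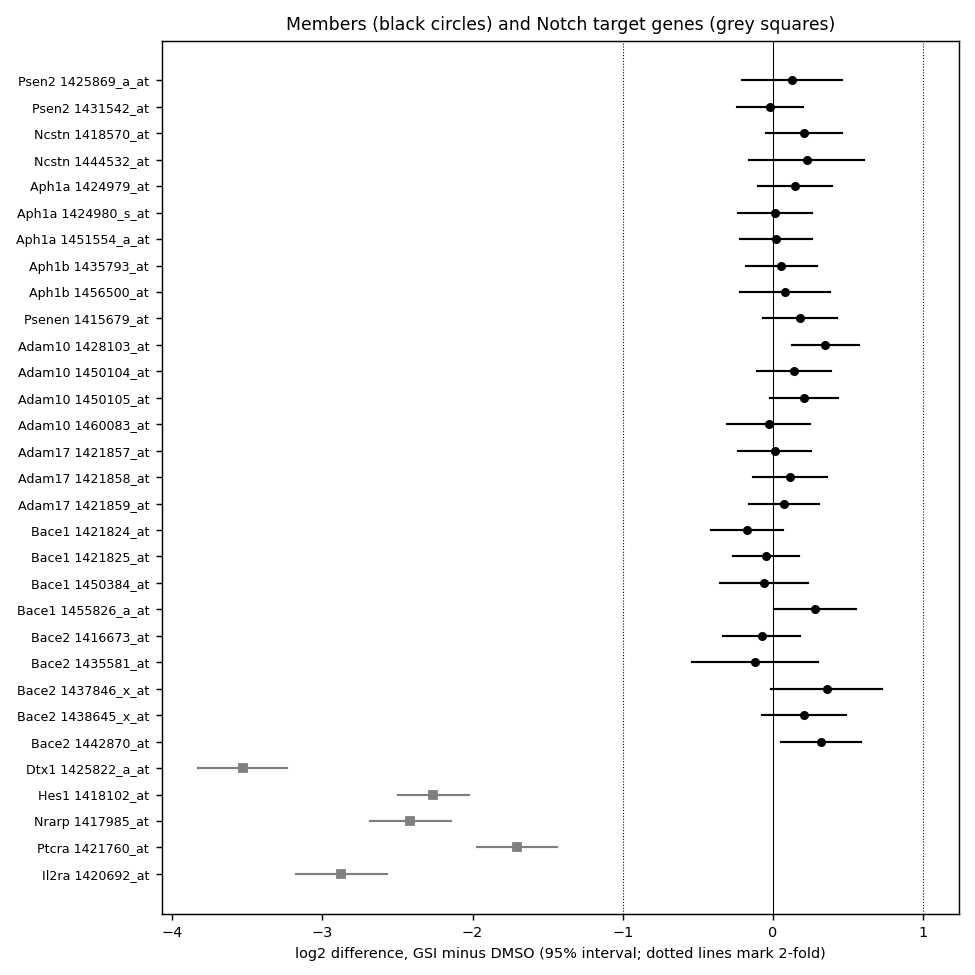
Log2 difference between GSI and DMSO (x axis, GSI minus DMSO) with its 95% interval from limma for each of the 26 member probe sets (black circles) and for the highest-mean probe set of 5 Notch-responsive genes (grey squares), 2 arrays per group. The member intervals span -0.54 to 0.73 and lie inside the dotted 2-fold lines, while the 5 Notch-responsive genes lie at -1.70 to -3.53.

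Upstream sequence is shown for 4 genes because RBPJ, the DNA-binding partner of the released Notch domain, recognises the core TGGGAA, so the letters of a gene that fell can be set beside those of members that did not pass. The RefSeq promoter table of build GRCm38.p6 held start sites for 7 of the 9 members, 9 windows in all, and each window was read as the 250 bases before the start. TGGGAA on either strand was in 2 of these 9 windows, the second listed starts of Psen2 and Psenen, and in 21.6% of all 32851 windows of that length. CACGTG, the E-box letters bound by several helix-loop-helix factors, was in 2 of the 9, a Psen2 start and Adam10, against 6.02% of all windows. Of the 4 Notch-responsive genes with a window, only Ptcra held TGGGAA, at 2 places, and only Nrarp held CACGTG. Dtx1, which fell most, Nrarp and Il2ra held no TGGGAA, so the Ptcra window does not stand for these genes. No base belonged to both motifs in these windows. The windows run 5′ to 3′ on the strand of the gene, and capitals mark the 2 motifs on either strand (TTCCCA is TGGGAA read on the other strand). Ptcra lies at chr17:46763713-46763962 (minus strand), Psen2 at chr1:180245951-180246200 (minus strand), Psenen at chr7:30563205-30563454 (minus strand) and Adam10 at chr9:70678732-70678981 (plus strand).
Ptcra: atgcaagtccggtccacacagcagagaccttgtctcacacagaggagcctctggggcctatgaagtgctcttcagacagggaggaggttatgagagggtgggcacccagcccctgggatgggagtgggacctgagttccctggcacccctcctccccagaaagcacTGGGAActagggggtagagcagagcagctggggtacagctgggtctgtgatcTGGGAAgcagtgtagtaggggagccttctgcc
Psen2: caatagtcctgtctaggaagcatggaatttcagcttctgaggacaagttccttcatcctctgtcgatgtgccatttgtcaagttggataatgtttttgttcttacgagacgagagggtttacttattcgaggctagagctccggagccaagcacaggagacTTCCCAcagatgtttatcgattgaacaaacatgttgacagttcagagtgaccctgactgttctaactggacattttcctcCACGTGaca
Psenen: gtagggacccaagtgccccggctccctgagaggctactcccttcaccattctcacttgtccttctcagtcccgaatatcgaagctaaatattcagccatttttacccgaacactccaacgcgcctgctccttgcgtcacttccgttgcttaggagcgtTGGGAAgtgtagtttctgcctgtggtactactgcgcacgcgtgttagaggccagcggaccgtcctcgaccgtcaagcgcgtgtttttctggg
Adam10: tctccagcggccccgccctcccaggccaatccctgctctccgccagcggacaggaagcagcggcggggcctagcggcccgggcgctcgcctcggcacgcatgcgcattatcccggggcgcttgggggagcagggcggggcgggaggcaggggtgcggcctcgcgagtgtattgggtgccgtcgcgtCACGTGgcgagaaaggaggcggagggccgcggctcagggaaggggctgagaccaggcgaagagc
A match describes letters only and does not show that a factor binds there.

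Among the gamma-secretase subunits 10 probe sets measured 5 genes, and 9 of the 10 means were higher with GSI, by at most 0.22 on the log2 scale. Psen2 encodes presenilin-2, one of the alternative catalytic subunits. Its probe set 1425869_a_at stood at 6.46 and 6.43 on the GSI arrays and at 6.49 and 6.14 on the DMSO arrays. The DMSO arrays enclosed both GSI arrays, and the difference was 0.13 ± 0.14 (SE, n = 2 per group; limma, adjusted p = 0.711). Without DMSO replicate 2 it was -0.044. The second Psen2 probe set, 1431542_at, read 5.62 on both GSI arrays and 5.64 on both DMSO arrays, a difference of -0.020 with a 95% interval of -0.24 to 0.20. The groups did not overlap there although their means were almost equal.

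Ncstn encodes nicastrin, the large glycoprotein subunit that contacts the substrate's shortened outer end. Its brighter probe set 1418570_at stood at 6.82 and 6.71 with GSI against 6.62 and 6.50 with DMSO. Both GSI arrays were above both DMSO arrays, by 0.21 ± 0.10 on average (SE; limma, adjusted p = 0.389). The dim probe set 1444532_at had a like mean difference of 0.22 but stood at 4.07 and 3.82 with GSI and at 3.55 and 3.90 with DMSO, so the groups overlapped. Psenen, which encodes PEN-2, the small subunit needed for presenilin to be cleaved into its active form, had 1 probe set, 1415679_at. It read 10.72 and 10.64 with GSI against 10.57 and 10.44 with DMSO. The arrays did not overlap, and the difference of 0.18 ± 0.099 did not pass (SE; limma, adjusted p = 0.438; 95% interval -0.063 to 0.43).

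The APH-1 subunits, scaffolds of the complex, come in alternative forms encoded by separate genes. For Aph1a the brightest probe set, 1451554_a_at, stood at 8.55 and 8.66 with GSI against 8.62 and 8.55 with DMSO, and 1424980_s_at at 8.42 and 8.32 against 8.42 and 8.30. The log2 differences were 0.017 and 0.013, and the groups overlapped in each. Only the dimmest Aph1a probe set, 1424979_at, separated the groups, at 6.96 and 7.11 with GSI against 6.89 and 6.88 with DMSO (difference 0.15; limma, adjusted p = 0.537). For Aph1b, 1456500_at stood at 5.89 and 5.66 with GSI against 5.61 and 5.78 with DMSO, a difference of 0.082 with a 95% interval of -0.22 to 0.38. The dimmer 1435793_at stood at 4.92 and 4.87 with GSI against 4.79 and 4.89 with DMSO, a difference of 0.056. The groups overlapped in both Aph1b probe sets. The sign for 1456500_at and for the 2 brighter Aph1a probe sets changed when single arrays were left out.

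Adam10, the main sheddase of ligand-bound Notch, had the smallest p of all members. Probe set 1428103_at stood at 10.47 and 10.55 on the GSI arrays and at 10.17 and 10.16 on the DMSO arrays. The GSI arrays were the higher ones without overlap, and the arrays of a group lay within 0.072 of each other. The difference was 0.35 ± 0.091 (SE, n = 2 per group), or 1.27-fold with a 95% interval of 1.09-fold to 1.49-fold, and did not pass (limma, adjusted p = 0.151, and 0.0851 when 1 probe set per gene was tested among 18193 genes). It passed under 1 alternative, an intensity trend with a robust prior (adjusted p = 0.0216, where the alternatives ranged from 0.0216 to 0.551). That setting called 2372 probe sets in all, against 628 without it. As the mean of its 4 probe sets Adam10 differed by 0.17 and did not pass (limma, adjusted p = 0.317).

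A further pair of Adam10 probe sets also separated the groups upwards. Probe set 1450105_at read 9.34 and 9.39 with GSI against 9.19 and 9.13 with DMSO, a difference of 0.21 (limma, adjusted p = 0.338). For 1450104_at the values were 8.61 and 8.71 with GSI against 8.58 and 8.46 with DMSO, a difference of 0.14 (adjusted p = 0.567). The fourth, 1460083_at, was dim, and its groups overlapped at 4.19 and 4.09 with GSI and 4.07 and 4.28 with DMSO. Its difference had the opposite sign, at -0.030. Adam17, the sheddase of tumour necrosis factor, had means higher with GSI in its 3 probe sets, by 0.012 to 0.11. The brightest, 1421858_at, stood at 8.12 and 8.25 with GSI against 8.03 and 8.12 with DMSO, the lower GSI array and the higher DMSO array being almost equal (limma, adjusted p = 0.653; 95% interval -0.13 to 0.36). For 1421859_at the values were 7.61 and 7.67 with GSI against 7.61 and 7.52 with DMSO, again separated by a narrow margin (difference 0.076). Probe set 1421857_at stood at 6.41 and 6.53 with GSI against 6.50 and 6.42 with DMSO. Its groups overlapped and its difference was 0.012.

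The beta-site proteases are membrane-bound aspartic proteases, BACE1 being the enzyme that starts amyloid-beta production from the amyloid precursor protein. Bace1 was measured by 4 probe sets that did not point one way. Probe set 1455826_a_at was higher with GSI, at 7.10 and 7.26 against 6.82 and 6.98 with DMSO (difference 0.28 ± 0.11, SE; limma, unadjusted p = 0.0443, adjusted p = 0.291). Probe set 1421824_at was lower, at 6.16 and 6.23 with GSI against 6.31 and 6.42 with DMSO (difference -0.17 ± 0.097; adjusted p = 0.458). The arrays did not overlap in either, so the sign for Bace1 depends on which probe set is read. Of the other two, 1421825_at stood at 5.14 and 5.17 with GSI against 5.20 and 5.21 with DMSO (difference -0.045), and 1450384_at at 5.78 and 6.03 against 6.02 and 5.91 (difference -0.059). The groups were apart in 1421825_at and overlapped in 1450384_at.

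Bace2, a relative of Bace1, was below the median level in all 5 of its probe sets. In 3 of them both GSI arrays were above both DMSO arrays. Probe set 1442870_at read 3.93 and 3.73 with GSI against 3.52 and 3.50 with DMSO (difference 0.32; limma, unadjusted p = 0.0260, adjusted p = 0.231). Probe set 1437846_x_at had the largest difference of any member, 0.36, from 4.36 and 3.97 with GSI against 3.76 and 3.85 with DMSO (adjusted p = 0.317). The GSI arrays were 0.40 apart, more than the groups were. The difference was 0.16 without GSI replicate 1 and 0.56 without GSI replicate 2, so its rank among the members depends on 1 array, and an _x_at name marks a probe set that may bind other transcripts. The brightest, 1438645_x_at, stood at 4.75 on both GSI arrays against 4.43 and 4.66 with DMSO (difference 0.20; adjusted p = 0.442). Probe set 1416673_at read 3.46 and 3.33 with GSI against 3.53 and 3.41 with DMSO (difference -0.074). Probe set 1435581_at read 2.71 and 2.68 with GSI against 3.06 and 2.57 with DMSO (difference -0.12). The groups overlapped in both of these, and in 1435581_at the DMSO arrays enclosed the GSI arrays.

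The 3 genes whose profile over the 4 arrays was most like that of Bace2 1437846_x_at among 18192 genes were 1700057H21Rik, Dgka and Flna. Their root mean square distances from it were 0.012, 0.020 and 0.021 after centring, and with 4 arrays such a ranking only describes these values.

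**Figure D2:**
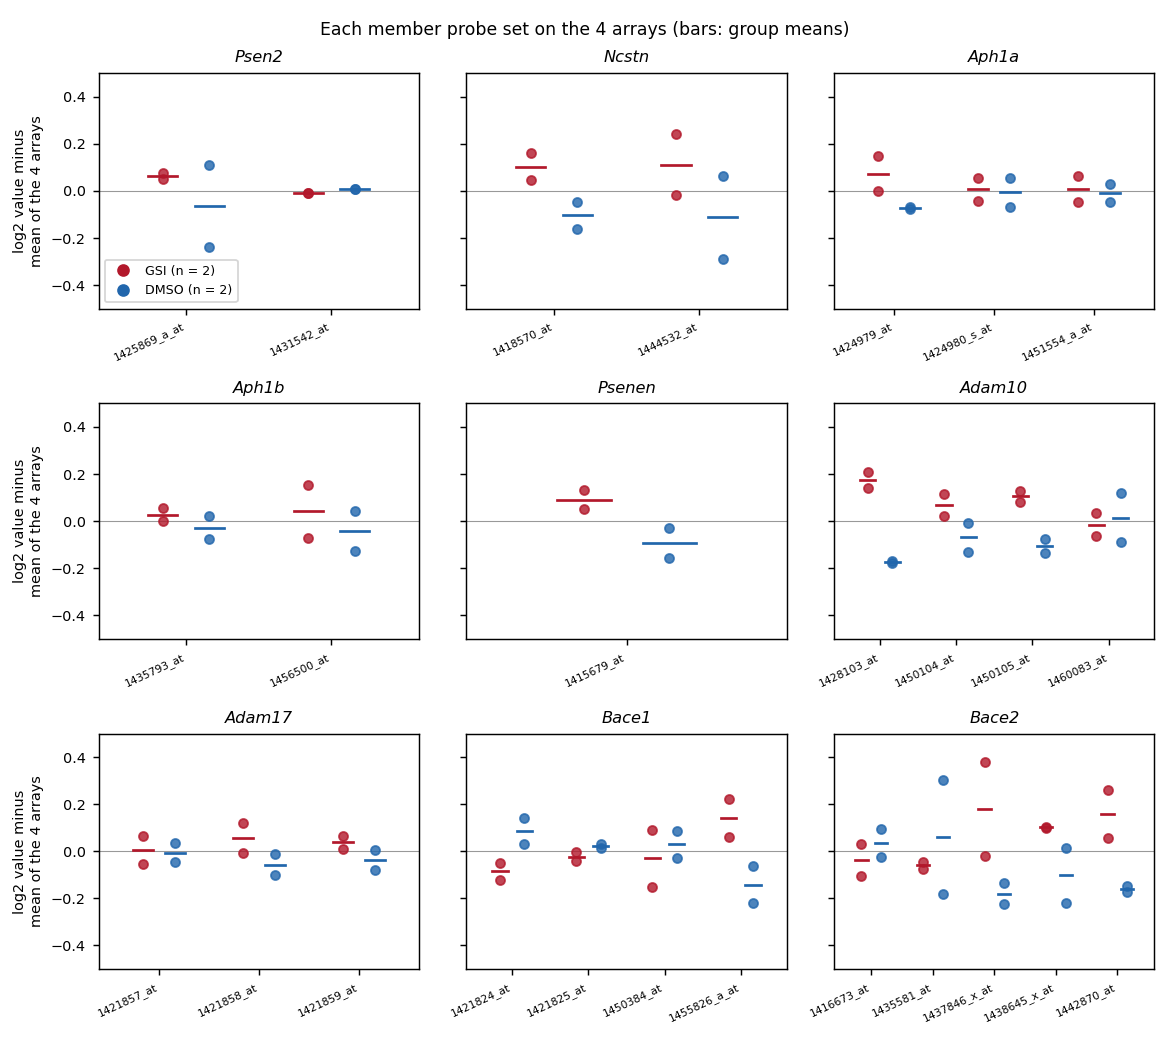
Log2 value on each array minus the mean of the 4 arrays (y axis, same scale in all panels) for every member probe set (x axis), with GSI arrays in red left of DMSO arrays in blue, 2 arrays per group, and bars at the group means. Adam10 1428103_at and Bace2 1442870_at separate the groups upwards, Bace1 points both ways, and the DMSO arrays of Bace2 1435581_at lie 0.49 apart.

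The size of the group differences was also set against the spread within groups. Over the 26 probe sets the GSI arrays did not overlap with the DMSO arrays in 15, of which 12 were higher and 3 lower with GSI. Among all probe sets 21.3% were higher and 25.2% lower without overlap. The group difference exceeded the larger of the 2 within-group differences in 10 of the 26 probe sets, or 38.5%, against 35.4% of all probe sets. When each gene was read from its highest-mean probe set, all 9 members had higher means with GSI, by 0.017 to 0.35, and 6 did so without overlap. Among all genes read this way 8555 of 18193 had higher means, and 23.7% were higher and 27.7% lower without overlap. Bace1 counted as higher through 1455826_a_at alone, as its other 3 probe sets had lower means with GSI. The mean of its 4 probe sets differed by 0.0018 (limma, adjusted p = 0.996).

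**Figure D3:**
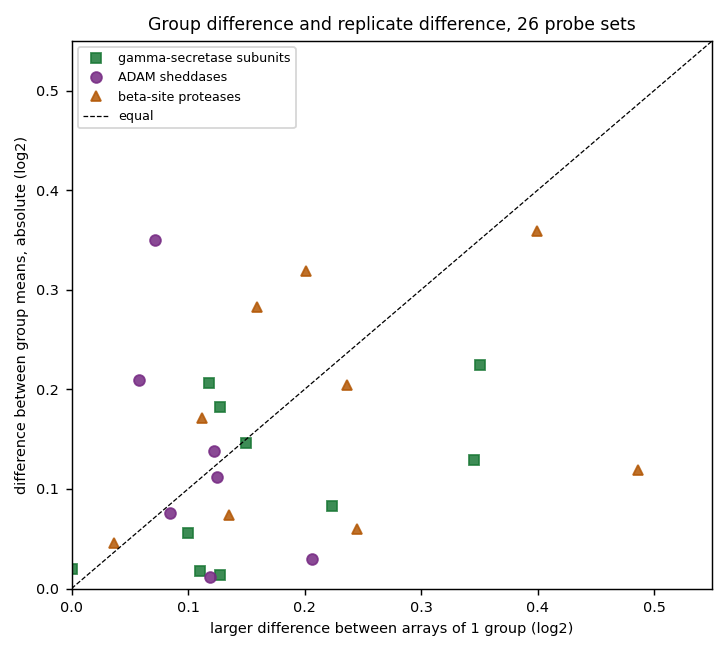
Absolute difference between the GSI and DMSO means (y axis, log2) against the larger of the 2 differences between arrays of 1 group (x axis, log2), 1 symbol per member probe set, with a dashed line where both are equal. The 10 probe sets above the line include Adam10 1428103_at (0.35 against 0.072), and the other 16 lie on or below it.

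The wider pathway was read from lists of genes that handle these proteases, 1 highest-mean probe set per gene, where 1.86% of all genes passed, 1.26% higher and 0.599% lower, and where an unadjusted p under 0.05 was reached upwards by 9.84% and downwards by 9.55%. Of 7 measured modulators of gamma-secretase 0 passed limma, with 0 at an unadjusted p under 0.05, and the median difference was 0.030. Tmed10, a cargo receptor reported to bind the complex, stood at 9.44 and 9.46 with GSI against 9.35 and 9.31 with DMSO. Bsg, which encodes basigin, differed by -0.18 with overlapping groups, its DMSO arrays being 0.39 apart. Of 9 genes that guide the trafficking or turnover of BACE1, 0 passed limma and 0 had an unadjusted p under 0.05. Rtn4, a reticulon that binds BACE1, differed by 0.18 and Vps35, a retromer subunit, by 0.097 (adjusted p = 0.383 and 0.666).

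Of 16 regulators of ADAM proteases 1 rose and 15 did not pass, with a median of 0.030. The one that rose was Tspan17, a member of the tetraspanin group that escorts ADAM10 out of the endoplasmic reticulum. Its probe set 1455642_a_at stood at 5.79 and 5.69 with GSI against 4.81 and 4.94 with DMSO, a 1.82-fold difference (limma, adjusted p = 0.0240). All GSI values were above all DMSO values, and the second Tspan17 probe set, 1424334_at, differed by 0.41 without passing (adjusted p = 0.131). The other ADAM10-binding tetraspanins did not pass, among them Tspan5 (0.085), Tspan14 (0.11), Tspan15 (0.12) and Tspan33 (-0.37), as log2 differences. Furin, which encodes the convertase that removes the inhibitory part of ADAM proteases and cleaves the Notch precursor, differed by 0.32 (adjusted p = 0.262). Dlg1, on the same list, was lower without overlap (-0.33, adjusted p = 0.189), and by -0.081 as the mean of its 3 probe sets. At an unadjusted p under 0.05, 2 of the 16 were higher and 2 lower. Furin, Dlg1 and the tetraspanins other than Tspan17 were named after their values were seen.

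Of 10 other ADAM genes 1 fell and 9 did not pass, with a median of -0.066. Adam19, encoding a metalloprotease of the same family, was at 4.97 and 5.06 with GSI against 6.36 and 6.23 with DMSO in probe set 1418402_at, a 2.43-fold fall (limma, adjusted p = 0.0102). Its dim second probe set also had lower GSI arrays without overlap (-0.38, adjusted p = 0.265). Of 8 other measured proteases that cut within membranes 1 rose, the rhomboid family gene Rhbdl3, with 7 not passing and a median of 0.027. Its probe set 1435941_at read 6.13 and 6.57 with GSI against 4.54 and 4.80 with DMSO, a 3.21-fold difference (adjusted p = 0.0180). The dim second probe set, 1427579_at, was 1.22-fold higher with GSI and did not pass (adjusted p = 0.204). Sppl2a, a presenilin-related aspartic protease, differed by 0.37 and the mitochondrial rhomboid gene Parl by -0.49, both without overlap and neither past the threshold (adjusted p = 0.168 and 0.117). Sppl2a and Parl, named after their values were seen, passed with the trend and robust prior (limma, adjusted p = 0.0486 and 0.0207). They also passed in the fit of probe set means (adjusted p = 0.0354 and 0.0474), but Parl has 1 probe set, so nothing was averaged for it. With 1 probe set per gene tested, neither passed (adjusted p = 0.0982 and 0.0671).

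Among 22 measured substrates of gamma-secretase 1 fell and 21 did not pass, with a median of -0.11. Notch3 was at 8.51 and 8.17 with GSI against 9.28 and 9.38 with DMSO in probe set 1421965_s_at, a 1.99-fold fall (limma, adjusted p = 0.0392), and 1421964_at fell 2.32-fold (adjusted p = 0.0235). Notch1 (-0.56, adjusted p = 0.0694) and Notch4 (-0.69, adjusted p = 0.0621) did not pass. Both did when genes rather than probe sets were tested, with dim probe sets left out or with the trend and robust prior. Of the 2, only Notch4 passed with centred arrays and only Notch1 with probe set means. The second Notch1 probe set, 1418633_at, was lower without overlap (-0.62, adjusted p = 0.0737). The other Notch4 probe sets, 1436901_at and 1456263_at, were dim and their groups overlapped. They differed by -0.10 and 0.026 (adjusted p = 0.723 and 0.949). With genes tested, 4.12% of genes passed (2.56% higher and 1.56% lower). That gave 3 falls in the list, and Notch1 and Notch4 were named after their values were seen. App, the amyloid precursor protein gene, also named after its values were seen, was dim and differed by -0.28 (4.45 and 4.53 with GSI against 4.88 and 4.67 with DMSO; adjusted p = 0.297). Among 18 substrates of ADAM10 or ADAM17 1 fell and 17 did not pass, with a median of 0.027. It was Il15ra, encoding the alpha chain of the interleukin-15 receptor, at 6.07 and 6.16 with GSI against 7.71 and 7.41 with DMSO (2.72-fold; adjusted p = 0.0138). Its second probe set fell 2.09-fold (adjusted p = 0.0251). Hbegf, on the same list and named after its values were seen, differed by -0.81 and did not pass (limma, adjusted p = 0.0535). It passed when genes were tested (adjusted p = 0.0296), and its second probe set, 1418349_at, differed by -0.32 (adjusted p = 0.240). At an unadjusted p under 0.05, 2 of the 18 were higher and 2 lower. Of 8 BACE1 substrates 1 rose, Selplg, encoding the selectin ligand PSGL-1, at 9.72 and 9.59 with GSI against 8.80 and 8.76 with DMSO (1.84-fold; adjusted p = 0.0211), with 7 not passing and a median of 0.0066.

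**Figure D4:**
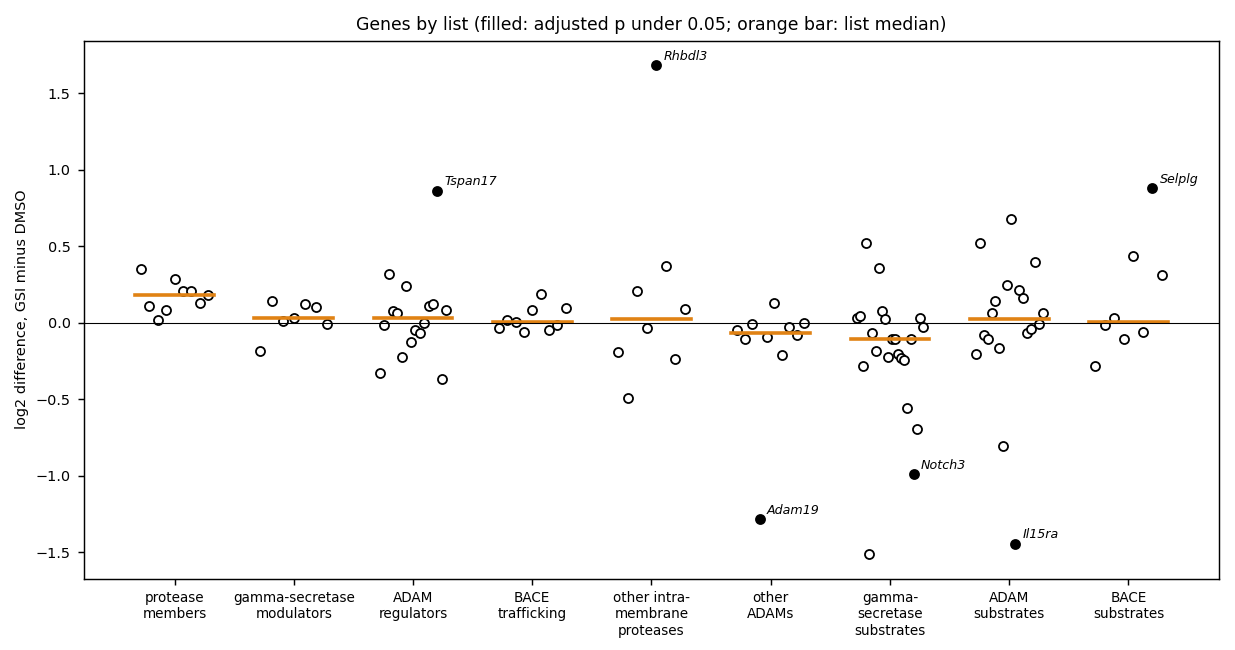
Log2 difference between GSI and DMSO (y axis, GSI minus DMSO) for each gene of the protease members and of 8 related lists (x axis), read from its highest-mean probe set, 2 arrays per group. Filled symbols passed limma at an adjusted p under 0.05 (Tspan17, Rhbdl3, Adam19, Notch3, Il15ra and Selplg), and orange bars mark list medians, which lie between -0.11 and 0.18.

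With 1 array left out, 1 group has a single array, whose spread is taken from the other group. Without GSI replicate 1, GSI replicate 2, DMSO replicate 1 or DMSO replicate 2, limma called 0 of the 45037 probe sets (3939 to 7010 at an unadjusted p under 0.05). At that size no probe set passed, whatever its fold, so the lost calls say nothing about any single gene. The directions of Tspan17, Adam19, Rhbdl3, Notch3, Il15ra, Selplg and the 5 Notch-responsive genes were the same in all 4 such fits. Dtx1 remained 10.7-fold to 12.5-fold lower, Rhbdl3 2.76-fold to 3.73-fold higher, Tspan17 1.74-fold to 1.90-fold higher and Notch3 1.76-fold to 2.24-fold lower with GSI. Lists were described by counts and medians only, and none is shown to differ from the other genes.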

How the data were processed

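RNA of 4 T29 samples was measured on 1-colour Affymetrix arrays. The authors deposited log2 expression values per probe set, made with RMA per the submitters' processing notes. Which version and options of RMA were run is not given in the sources used here, and RMA's background step and summary pull in the differences of dim probe sets. The table held 45101 probe sets and 64 controls were left out. Of the remaining 45037, 34945 had 1 gene symbol, 932 several and 9160 none in the platform annotation. Symbols were updated by gene identifier to RefSeq (34741 matched).

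Every probe set was tested with limma 3.58.1 in R 4.3.3 (lmFit, eBayes, group as the only term, two-sided, Benjamini-Hochberg over all probe sets, threshold 0.05). Intervals use the moderated SE at 95%. With 2 arrays per group, their number limits the precision. Dim probe sets were kept. A list gene was read from its 1-symbol probe set with the highest mean, and list genes without one were not analysed here. The members and lists were chosen with earlier results of these data known. The rule for named genes took all members, the called genes of each list (where none was called, its 2 smallest p), the 5 Notch-responsive genes and the 3 genes most like the member probe set with the largest difference. Genes outside this rule were chosen after their values were seen, which includes the markers named. The alternatives were gene-level fits, a filter on dim probe sets, an intensity trend and robust prior, median centring, cyclic loess, a replicate block, a 2-fold minimum and leaving out each array. The fits were tested on simulated data.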

Additional observations from a re-analysis of the deposited data

How the results depend on the processing

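All 26 member probe sets stayed uncalled under every alternative in which they were tested, except Adam10 1428103_at, the 1 member called with the intensity trend and robust prior. Over all probe sets 628 were called, against 1556 with dim ones left out, 2372 with the trend and robust prior, 310 with a 2-fold minimum, 916 (2.03%) with centred arrays, 809 (1.80%) after cyclic loess and 0 to 0 with any array left out. Dim probe sets left out gave 6.91% and the trend and robust prior 5.27% of those tested. At gene level 750 of 18193 genes (4.12%) and as probe set means 891 (4.90%) were called. Outside the leave-one-out fits no member changed sign. In those fits 8 probe sets did, none above 0.13 in size with all arrays: Psen2 1425869_a_at (-0.044 to 0.30), Aph1a 1424980_s_at (-0.050 to 0.077) and 1451554_a_at (-0.038 to 0.073), Aph1b 1456500_at (-0.029 to 0.19), Adam10 1460083_at (-0.13 to 0.074), Adam17 1421857_at (-0.048 to 0.071), Bace1 1450384_at (-0.18 to 0.063) and Bace2 1435581_at (-0.36 to 0.12).

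Of the lists, the gamma-secretase substrates had 3 calls at gene level, with dim probe sets left out and with the trend and robust prior, 2 with centred arrays or probe set means, and 0 with a 2-fold minimum. The ADAM substrates had 2, both lower, at gene level, with dim probe sets left out, centred or after cyclic loess. They had 4, of which 2 were higher and 2 lower, as probe set means or with the trend and robust prior. The other intramembrane proteases had 3 in these last 2 settings. With a 2-fold minimum the ADAM regulators and BACE substrates had 0. Without any 1 array these lists had 0, as did all probe sets, so this tells nothing about the lists.

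The replicate numbers are shared between groups, but nothing says that a number marks a shared culture, and deviations of same-numbered arrays correlated at 0.0695. With the replicate number as a block, limma called 65 probe sets, 0 of the 26 members, and 0 ADAM regulators, other ADAMs, gamma-secretase substrates, ADAM substrates and BACE substrates, while Rhbdl3 still passed (adjusted p = 0.0467). The cause of these shifts was not tested. Signals near the dim end, as for Bace2, limit what could be seen.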

Other observations

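Probe set 1429466_s_at is annotated to both Aph1b and its close copy Aph1c, so it was left out of the members. It stood at 5.12 and 5.02 with GSI against 4.99 and 5.07 with DMSO, with overlapping groups and a difference of 0.043 (limma, adjusted p = 0.882). Its signal cannot be divided between the 2 genes. Cdh1, the E-cadherin gene and a substrate of gamma-secretase, had the largest difference among the substrates, -1.51, and was named after its values were seen. It read 3.25 and 3.63 with GSI against 5.61 and 4.29 with DMSO, so the groups did not overlap, but the DMSO arrays were 1.32 apart and it did not pass (limma, adjusted p = 0.167).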
